A study of Mus musculus with 48 samples.

Results

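Keratins are the intermediate filament proteins of epithelial cells. A type I (acidic) keratin pairs with a type II (basic) keratin, and the pairs assemble into filaments that are anchored at desmosomes. Simple epithelia use Krt8 and Krt18 together with Krt7, Krt19 and Krt20, and the same genes are among the earliest epithelial markers of the embryo. Stratified epithelia use Krt5 and Krt14 in their basal layer, and Krt6a, Krt6b, Krt16 and Krt17 are known from hair follicles and from wounded or proliferating epidermis. Fibroblasts rely mainly on vimentin, so keratins are followed here on the passage from fibroblast to induced pluripotent stem cell (iPSC). The fibroblasts of this series still held keratin RNA, Krt19 above all, so not every member marks the epithelial side.

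All transcript rows named Krt followed by a number and at most 1 letter were taken, with the keratin-associated Krtap and Krtcap genes left out. This gave 51 of 24264 transcripts, and 15 of the 51 had at least 100 reads over all libraries and are described here. The member nearest to the threshold was Krt5 with 197 reads, and the nearest genes below it were Krt222 with 80, Krt15 with 63 and Krt12 with 50 reads. The 36 keratins below the threshold held 534 reads in all, against 124113 for the 15 members, and 10 of the 36 had no read. Of the members, 9 were type I keratins: Krt18 on chromosome 15, and Krt19, Krt20, Krt17, Krt14, Krt16, Krt42, Krt13 and Krt10 on chromosome 11. The 6 type II members Krt8, Krt7, Krt6a, Krt6b, Krt5 and Krt80 all lay on chromosome 15, where RefSeq places Krt8 (gene ID 16691) at chr15:101996711-102004342 on the minus strand and Krt18 (16668) at chr15:102028216-102032026 on the plus strand in GRCm38.p6.

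The study compared mouse embryonic fibroblast (MEF) reprogramming by a pair of polycistronic cassettes with c-Myc, Klf4, Oct4 and Sox2, in the order MKOS or OKMS. The cassettes also differ in Klf4, which is full length in MKOS and a shorter form lacking the first N-terminal residues in OKMS. Effects of order and of Klf4 form cannot be told apart in these RNA libraries. In separate flow cytometry, the study reported surface marker and Nanog-GFP changes like those of MKOS when OKMS carried full-length Klf4. Each cassette was doxycycline-inducible and stood, with a CAG-promoter-driven rtTA, in an intron of Sp3 in the TNG embryonic stem cell (ESC) line, whose Nanog locus carries a GFP reporter. RNA was sequenced from transcript 5′ ends in 48 libraries of 20 conditions, and the total on transcripts ran from 1429717 to 14174725 reads per library with a median of 6243254. Transgenic MEFs came from chimeric embryos made with these ESCs, and the reprogramming cultures received doxycycline and vitamin C. The intermediates were sorted on day 10, although the growth protocol gives 10 or 15 days. The 2NG- gate holds CD44- ICAM1- Nanog-GFP- cells, the 3NG- gate CD44- ICAM1+ Nanog-GFP- cells and the 3NG+ gate CD44- ICAM1+ Nanog-GFP+ cells. The sample titles give the 3NG+ cells of either cassette as E-CAD+ too. For MKOS the E-CAD+ 2NG-, E-CAD+ 3NG- and 3NG+ populations were sequenced, and for OKMS the E-CAD- 2NG-, E-CAD- 3NG-, E-CAD+ 2NG-, E-CAD+ 3NG- and 3NG+ populations, with 3 libraries each. The other 12 conditions had 2 libraries each: wild-type, MKOS and OKMS MEFs, established MKOS and OKMS iPSC clones without doxycycline or in 2i medium, the D6 (D6s4B5) iPSC line, TNG MKOS, TNG OKMS and unmodified TNG ESCs, and E14 ESCs. The labels number the libraries as replicates without naming separate cultures or embryos, so a p-value measures the spread between these libraries, which may be technical. These are bulk samples, in which fewer cells that express a keratin and less keratin RNA per cell cannot be told apart.

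Levels are read counts scaled to the library's total on transcripts (CPM). Since reads mark 5′ ends, a count does not scale with transcript length. Differences are log2 fold changes from edgeR's quasi-likelihood test over 15630 transcripts, called at a Benjamini-Hochberg FDR of at most 0.05. All 15 members entered the test, several only through the sorted populations in which they were high. Reads with more than 1 mapping position made up 21.3% of Krt8, 21.8% of Krt6a, 23.7% of Krt16, 10.2% of Krt10 and 7.15% of Krt42 reads and at most 3.04% for the other members, so values of Krt8 and of the near-identical Krt6 and Krt16 genes are less certain.

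Replicate 3 of the sorted populations stood apart from replicates 1 and 2 in many of these genes, as the plot of replicate 3 against the others shows. Krt17 was lowest in replicate 3 in 8 of 8 sorted populations, and Krt8, Krt16 and Krt6a in 6 of 8, whereas Krt18 was highest there in 6 of 8. Over all 15630 transcripts tested, 4.41% were lowest and 5.5% highest in replicate 3 in at least 6 of the 8 populations. In OKMS E-CAD+ 2NG- cells the 15 listed epithelial regulators summed to 423, 423 and 189 CPM and the 12 pluripotency markers to 1059, 869 and 3470 CPM in replicates 1, 2 and 3. The part of these differences in the keratin values was not tested. Replicate 2 of OKMS 3NG+, the library with the fewest reads, also stood apart and is named where it decides a value. Counts of called keratins are therefore given with all libraries and without replicate 3 of the 8 sorted populations.

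**Figure D1:**
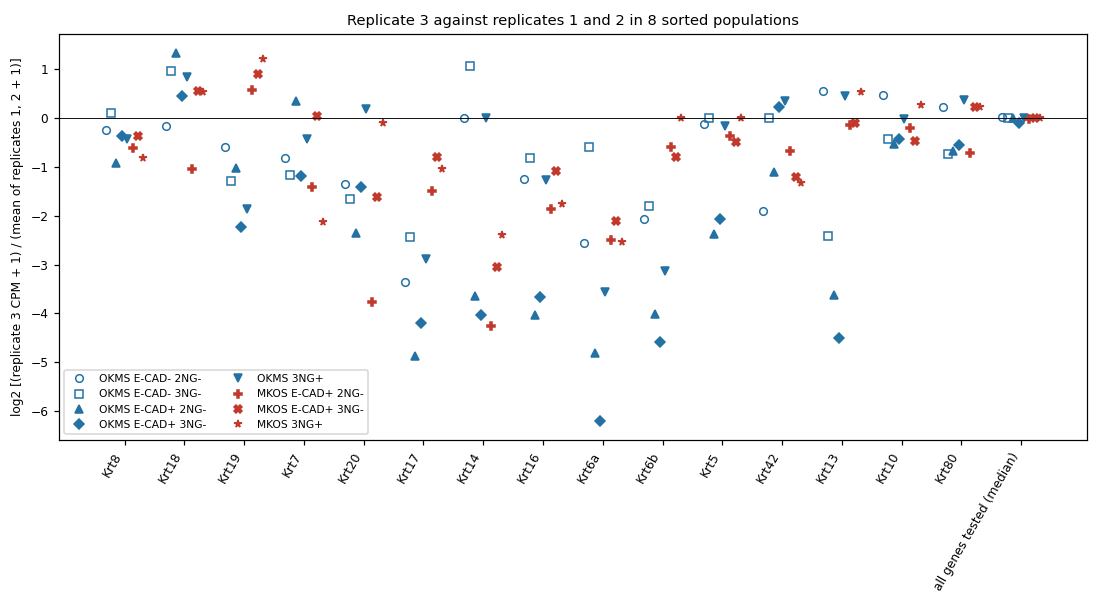
Replicate 3 against replicates 1 and 2 for the 15 keratins in the 8 sorted populations. The y axis is the log2 ratio of replicate 3 CPM + 1 to the mean of replicates 1 and 2 + 1, each symbol is 1 population, and the right-most column is the median of all transcripts tested, which lay between -0.09 and 0.03. Krt17 lies below 0 in all 8 populations and Krt18 above 0 in 6 of 8.

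Summed over the 15 members, keratin RNA was low at the beginning and at the end of reprogramming and high in between. The sum was 66.0 to 124 CPM over the 6 MEF libraries, 448 CPM at the least and 1121 CPM at the most over the 6 OKMS E-CAD+ Nanog-GFP- libraries, and 724 to 2581 CPM over the 6 MKOS E-CAD+ Nanog-GFP- libraries. It was 82.8 to 192 CPM over the 6 OKMS E-CAD- libraries, 52.8 to 346 CPM over the 6 3NG+ libraries and 28.6 to 123 CPM over the 18 libraries of iPSCs and ESCs. No E-CAD+ Nanog-GFP- library overlapped any MEF, E-CAD-, 3NG+, iPSC or ESC library. The highest mean was that of MKOS E-CAD+ 2NG- cells, 1931 ± 764 CPM (SD, n = 3), in which Krt8 and Krt17 together made up 78.9%, 81.5% and 85.2% of the keratin reads.

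**Figure D2:**
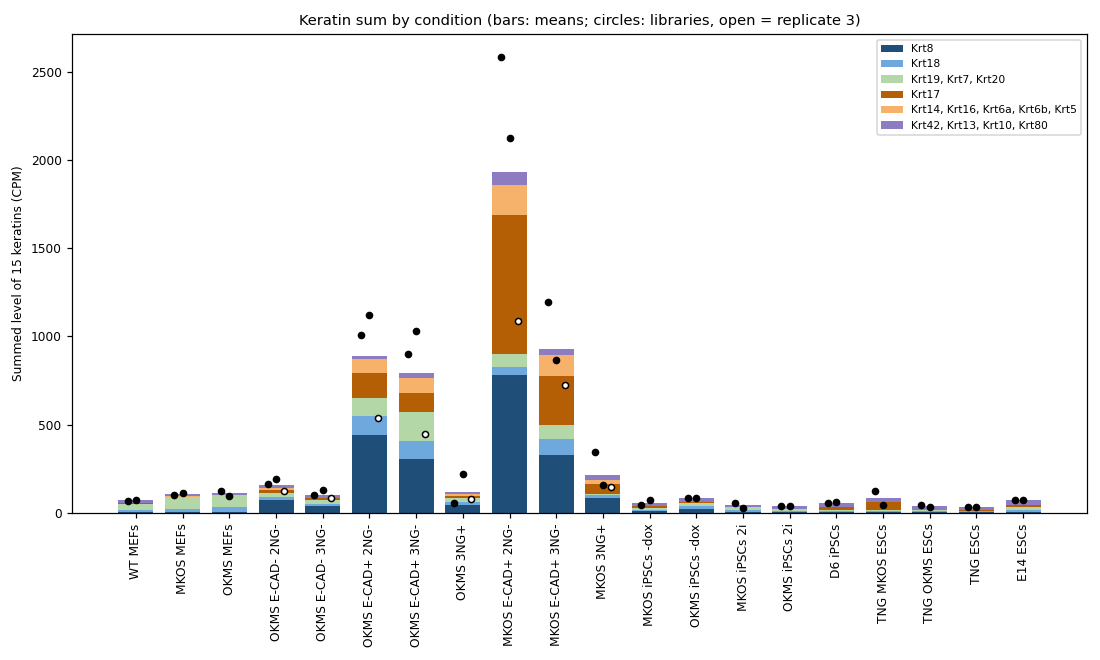
Summed CPM of the 15 keratins in the 20 conditions. Bars are condition means stacked by gene, circles are libraries and open circles are replicate 3. The E-CAD+ 2NG- and 3NG- bars of either cassette stand above all others, and Krt8 (dark blue) and Krt17 (brown) are the largest parts of the MKOS E-CAD+ 2NG- bar.

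Krt8, the type II keratin of simple epithelia, had the most reads of all members. Its level was 3.28 and 7.98 CPM in MKOS MEFs and 846, 915 and 572 CPM in MKOS E-CAD+ 2NG- cells. This was a log2 fold change of 7.16 (SE 0.73, FDR 1.15e-09). In OKMS MEFs it was 6.87 and 6.3 CPM, in OKMS E-CAD- 2NG- cells 67.9, 86.2 and 65.2 CPM, and in OKMS E-CAD+ 2NG- cells 532, 520 and 276 CPM. The change from OKMS MEFs was 3.44 (SE 0.62, FDR 5.86e-05) into the E-CAD- and 6.17 (SE 0.70, FDR 8.31e-09) into the E-CAD+ cells, so Krt8 was higher than in MEFs in cells without surface E-CAD too. RNA of Cdh1, the gene of E-CAD, was also higher in these E-CAD- cells than in OKMS MEFs, by 5.84 (SE 0.74, FDR 1.76e-07). In the 3NG- gate Krt8 was 338, 316 and 255 CPM in OKMS and 379, 327 and 274 CPM in MKOS E-CAD+ cells, and 31.7, 44.6 and 41.4 CPM in OKMS E-CAD- cells. MKOS 3NG+ cells had 118, 81.6 and 56.5 CPM, and OKMS 3NG+ cells 15.9, 76.9 and 34.1 CPM, where the middle value is replicate 2. In the 18 iPSC and ESC libraries the lowest, median and highest levels were 0.582, 6.0 and 27.2 CPM, within a range that overlaps the MEFs.

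Krt18, the type I partner of Krt8, was present in every library and varied less. MKOS MEFs had 9.62 and 18.4 CPM, and MKOS E-CAD+ 2NG- cells 54.1, 62.9 and 27.8 CPM. For OKMS the MEFs had 26.5 and 23.8 CPM, with 14.8, 18.9 and 14.8 CPM in E-CAD- 2NG- cells and 58.6, 80.9 and 178 CPM in E-CAD+ 2NG- cells, the highest value being replicate 3. The 3NG- cells had 107, 75.7 and 126 CPM (OKMS E-CAD+) and 73.4, 81.2 and 114 CPM (MKOS), against 9.58, 7.67 and 17.7 CPM in OKMS E-CAD- 3NG- cells. The E-CAD+ 3NG- libraries of either cassette lay above all MEF, E-CAD-, 3NG+, iPSC and ESC libraries. In the 3NG+ gate Krt18 was 15.1, 8.89 and 17.9 CPM for MKOS and 14.3, 11.2 and 23.7 CPM for OKMS, which overlapped the 9.43 to 26.5 CPM of the MEFs.

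The ratio of the Krt8 to the Krt18 level changed along with these levels. It was 0.259 to 0.616 over the 6 MEF libraries, where Krt18 was the higher, and 14.6 to 20.6 in MKOS E-CAD+ 2NG- cells, where Krt8 was far higher. In OKMS E-CAD+ 2NG- cells the ratio was 9.08, 6.43 and 1.55, and these did not overlap the MKOS values. In the 3NG- gate the ratios were 5.16, 4.03 and 2.4 for MKOS and 3.17, 4.17 and 2.03 for OKMS E-CAD+ cells, which overlapped. OKMS E-CAD- cells already had ratios of 2.34 to 5.82, and 3NG+ cells had 1.12 to 9.18, so Krt8 exceeded Krt18 in all 24 sorted libraries. The range over iPSCs and ESCs was 0.0816 to 4.63. The order of the MKOS and OKMS 2NG- ratios was noticed in these values and was not tested. MKOS had 15.6, 14.6 and 20.6 in replicates 1, 2 and 3, so the order held in each. The gap was widest in replicate 3, which stood apart as named above.

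**Figure D3:**
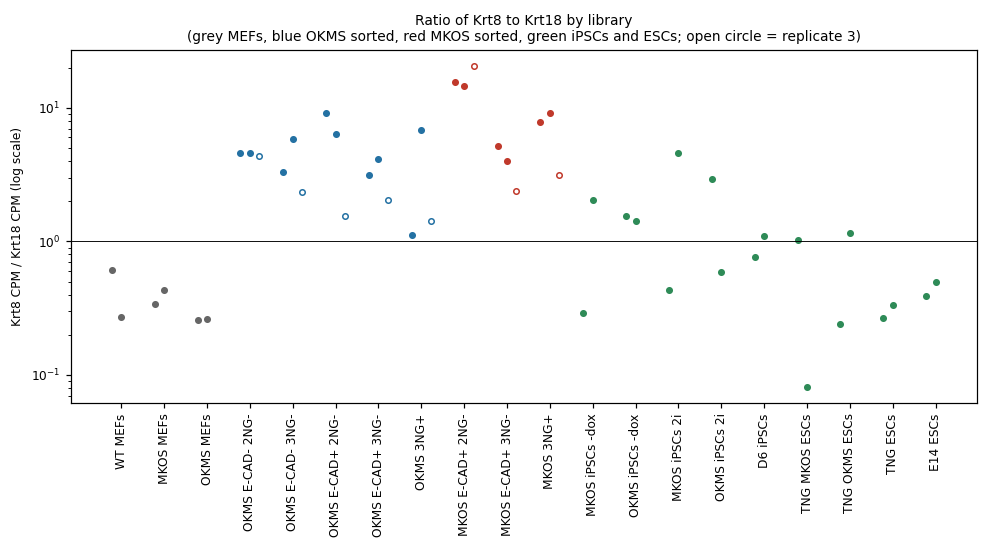
Krt8 CPM divided by Krt18 CPM in each of the 48 libraries, on a log scale with a line at 1. MEF libraries (grey) lie below 1, at 0.259 to 0.616, all sorted libraries (blue and red) above 1, and MKOS E-CAD+ 2NG- libraries at 14.6 to 20.6.

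The 250 bases before the annotated starts of Krt8, Krt18 and Krt42 are shown. Over the 20 condition means, on log2(CPM + 1), Krt8 and Krt18 correlated at a Pearson r of 0.86, although their ratio changed as given above. Krt42, described further on, correlated with Krt8 at 0.08 and with Krt18 at -0.10. It did rise with both from MKOS MEFs to MKOS E-CAD+ 2NG- cells. RefSeq's promoter table (GRCm38.p6) held 9 of the 15 members, 7 of them at the 5′ end of the gene. Capitals mark CACCC and its reverse complement GGGTG, the core of the elements that Klf factors bind. The windows are chr15:102004343-102004592 (minus strand) for Krt8, chr15:102027966-102028215 (plus strand) for Krt18 and chr11:100269952-100270201 (minus strand) for Krt42, each written 5′ to 3′ along the gene.
Krt8: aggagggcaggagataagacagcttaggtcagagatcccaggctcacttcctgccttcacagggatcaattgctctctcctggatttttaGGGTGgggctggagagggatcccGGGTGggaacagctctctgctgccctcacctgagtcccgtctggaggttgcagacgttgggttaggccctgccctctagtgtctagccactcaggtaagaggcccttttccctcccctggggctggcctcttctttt
Krt18: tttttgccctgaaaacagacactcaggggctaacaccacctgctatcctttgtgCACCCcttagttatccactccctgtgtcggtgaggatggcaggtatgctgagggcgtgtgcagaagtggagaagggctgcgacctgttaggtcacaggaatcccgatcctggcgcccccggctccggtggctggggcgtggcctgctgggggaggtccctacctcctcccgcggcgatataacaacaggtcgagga
Krt42: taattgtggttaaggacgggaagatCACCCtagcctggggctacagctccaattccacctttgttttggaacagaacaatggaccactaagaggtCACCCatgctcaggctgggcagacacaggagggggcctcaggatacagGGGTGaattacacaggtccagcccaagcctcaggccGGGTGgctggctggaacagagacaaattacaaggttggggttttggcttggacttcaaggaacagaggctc
Over the 300-base windows, which reach 50 bases past the start, both strands were searched and overlapping matches counted. CACCC was found 2 times for Krt8, 2 times for Krt18 and 4 times for Krt42, and at least once in 57.5% of all 32851 promoters. CATTGT, a Sox core, matched once in Krt42 and neither in Krt8 nor in Krt18, and is found in 12.6% of promoters. ATGCAAAT, the octamer (1.74% of promoters), and CACGTG, the E-box bound by Myc (7.15%), matched in none of the 3. TATAAA (13.6%) was found on both strands across the Krt8 start, where the reverse match overlaps the forward one, and at position 20 of Krt42. A match of letters is a description and not a binding site.

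Krt19 and Krt7 are further keratins of simple epithelia, and Krt19 was the member with the highest level in every MEF library. Krt19 was 24.7 and 31.8 CPM in wild-type, 65.5 and 55.2 CPM in MKOS and 59.0 and 41.7 CPM in OKMS MEFs. It was 27.1, 20.7 and 35.9 CPM in MKOS E-CAD+ 2NG- cells, below both MKOS MEF libraries, but the difference of -1.16 (SE 0.65, FDR 0.185) was not called. Krt19 was called lower, the 1 call added to the 10 that rose, without 7 sorted libraries, namely replicate 3 of the 6 Nanog-GFP- populations and OKMS 3NG+ replicate 2 (FDR 0.0371), with no filter on low counts and in a fit to the libraries compared only. OKMS E-CAD+ cells had 77.7, 134 and 51.4 CPM in the 2NG- and 166, 246 and 43.1 CPM in the 3NG- gate, against 20.3, 24.7 and 14.5 CPM and 17.5, 30.3 and 9.26 CPM in their E-CAD- counterparts. Krt19 was 2.31, 5.93 and 10.9 CPM in MKOS 3NG+ and 3.4, 54.6 and 7.3 CPM in OKMS 3NG+ cells, the outlying value being replicate 2. Krt7 was 2.64 to 16.0 CPM over the MEF libraries and reached 22.2 CPM in MKOS E-CAD+ 3NG- cells, and no comparison called it with all libraries. Krt20, the simple epithelial keratin known from the gut, was 46.0, 53.0 and 2.71 CPM in MKOS E-CAD+ 2NG- and 27.9, 22.0 and 7.42 CPM in MKOS E-CAD+ 3NG- cells, and at most 7.59 CPM in any other library.

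Krt17, a type I keratin of hair follicle and activated epidermis, had the highest level of any member in a library. It was 0 and 0.665 CPM in MKOS MEFs (3 reads in all) and 0 in both OKMS MEF libraries. In MKOS E-CAD+ cells it was 1190, 816 and 355 CPM in the 2NG- and 402, 247 and 187 CPM in the 3NG- gate. OKMS E-CAD+ cells had 226, 188 and 6.14 CPM (2NG-) and 148, 170 and 7.77 CPM (3NG-), so replicate 3 lay far below replicates 1 and 2. Krt17 was 28.1, 23.7 and 1.63 CPM in OKMS E-CAD- 2NG- and 14.4, 12.2 and 1.63 CPM in OKMS E-CAD- 3NG- cells. In 3NG+ cells it was 101, 33.0 and 32.0 CPM for MKOS and 3.66, 28 and 1.29 CPM for OKMS, and these did not overlap. Unlike most stratified keratins it stayed present in several ESC lines, at 70.5 and 15.6 CPM in TNG MKOS ESCs and 9.95 and 9.91 CPM in E14 ESCs, and was not read in MKOS iPSCs in 2i.

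Krt14, Krt5, Krt6a, Krt6b and Krt16 were at no more than 2.06 CPM in any MEF, iPSC or ESC library. Krt14, the type I keratin of basal keratinocytes, was 159, 95.9 and 5.69 CPM in MKOS E-CAD+ 2NG- and 90.9, 66.1 and 8.57 CPM in MKOS E-CAD+ 3NG- cells. OKMS E-CAD+ cells had 9.54, 13.5 and 0 CPM (2NG-) and 11.8, 19 and 0 CPM (3NG-). Krt5, which pairs with Krt14 in basal keratinocytes, was instead 8.69, 4.84 and 0.494 CPM in OKMS E-CAD+ 2NG- cells and 0.306, 1.33 and 0.406 CPM in MKOS E-CAD+ 2NG- cells. Krt14 was thus far above Krt5 in MKOS replicates 1 and 2, and the Krt5 values of MKOS and OKMS, which rest on few reads, overlapped.

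Krt6a and Krt16, partners in activated epidermis, were high with either cassette in E-CAD+ Nanog-GFP- cells, except in OKMS replicate 3. Krt6a was 84.1, 30.7 and 9.35 CPM in MKOS and 31.7, 74.5 and 0.917 CPM in OKMS E-CAD+ 2NG- cells, and 59.4, 18.3 and 8.22 CPM and 51.3, 94.5 and 0 CPM in the 3NG- gate. Krt16 was 69.4, 37.6 and 14.1 CPM and 17.9, 38.4 and 0.776 CPM in the 2NG- gate. Krt6b, a near copy of Krt6a, was read in OKMS cells at 8.52, 21.9 and 0 CPM (E-CAD+ 2NG-) and 21.6, 24.5 and 0 CPM (E-CAD+ 3NG-), and at 1.02, 0 and 0 CPM in MKOS E-CAD+ 2NG- cells. None of the 18 iPSC and ESC libraries had a read of Krt6a or Krt6b. With 3 reads as the limit that a count of 0 allows, the floor of a library was 0.212 to 2.1 CPM, and such limits cover counting error only.

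Krt42, a type I keratin, differed from the rest. It was not read in the MKOS and OKMS MEFs and had 2 reads in wild-type MEFs. MKOS E-CAD+ 2NG- cells had 35.6, 42.2 and 24.0 CPM, MKOS E-CAD+ 3NG- cells 20.9, 21.1 and 8.57 CPM and MKOS 3NG+ cells 29.7, 16.0 and 8.43 CPM. In OKMS it was 0, 3.55 and 0.282 CPM in E-CAD+ 2NG-, 0.625, 1.9 and 1.65 CPM in E-CAD+ 3NG- and 3.15, 0.699 and 2.72 CPM in 3NG+ cells. In the pluripotent lines it was present too, the lowest, median and highest of 18 libraries being 0, 13.9 and 26 CPM, and the 4 libraries in 2i medium had 0, 2.42, 0 and 10.0 CPM. MKOS intermediates overlapped the ESCs, and all 15 OKMS sorted libraries, at 0 to 5.49 CPM, lay below the lowest of the 9 MKOS sorted libraries, 8.43 CPM.

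Of the remaining members, Krt13, a keratin of internal stratified epithelia, was 28.1, 20.7 and 22.0 CPM in MKOS and 13.1, 9.35 and 0 CPM in OKMS E-CAD+ 2NG- cells. Krt80 was 9.69, 9.45 and 5.42 CPM in MKOS and 0.852, 0.322 and 0 CPM in OKMS E-CAD+ 2NG- cells, and was not read in any iPSC or ESC library. Krt10, the keratin of suprabasal epidermis, was 1.1 to 21.4 CPM over all 48 libraries and was called in no comparison.

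**Figure D4:**
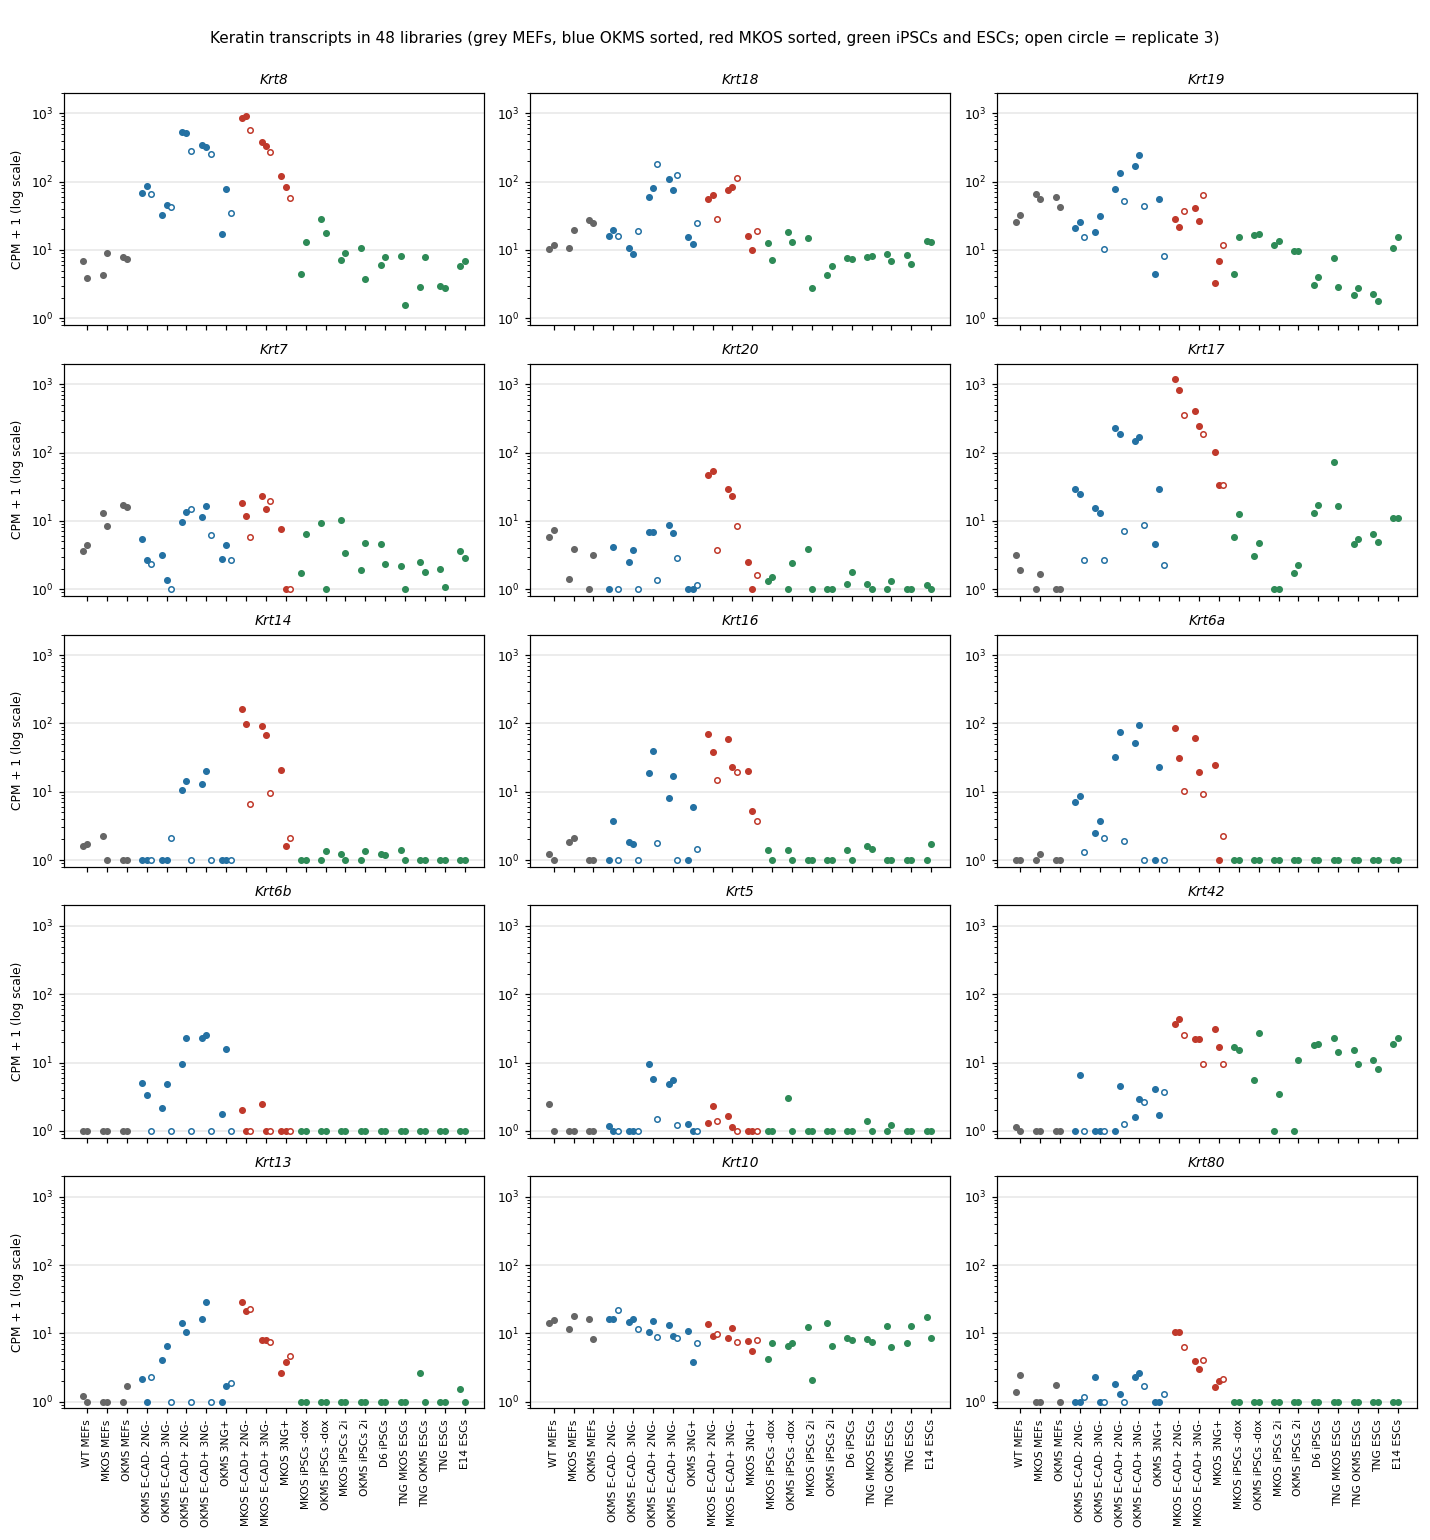
CPM + 1 on a log scale for the 15 keratins in 20 conditions, 1 circle per library, open for replicate 3. Krt8 and Krt17 are higher in the E-CAD+ Nanog-GFP- cells (blue OKMS, red MKOS) than in the MEFs (grey). So are Krt14, Krt16 and Krt6a except in OKMS replicate 3, where they are at most 0.917 CPM. In iPSCs and ESCs (green) Krt14, Krt16 and Krt6a are near 0 and Krt8 is at most 27.2 CPM, while Krt17 reaches 70.5 CPM. Krt42 has a median of 13.9 CPM there, and Krt10 lies within 1.1 to 21.4 CPM throughout.

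From MKOS MEFs to MKOS E-CAD+ 2NG- cells, 10 of the 15 keratins rose and none fell with all libraries, where 27% of all transcripts were called (2342 higher, 1872 lower). Beside Krt8 these were Krt18 with a log2 fold change of 1.78 (SE 0.49, FDR 0.00572), Krt17 with 11.64 (SE 1.79, FDR 3.93e-06), Krt14 with 6.78 (SE 1.84, FDR 0.0058), Krt20, Krt16, Krt6a, Krt42, Krt13 and Krt80. The Krt20 libraries of the 2 groups overlapped. Krt42, Krt13 and Krt80 were at 0 in both MKOS MEF libraries, so their levels were at least 162-fold, 112-fold and 39.0-fold higher, against 3 reads over the 2 libraries. With no read in the MKOS MEFs, 5 of the 15 members could not fall, and several entered the test only through sorted populations. The count and direction of these calls are thus a description and not a test of the keratins as a set. The same 10 were called without replicate 3 of the sorted populations (23.3% of all transcripts). Without MKOS MEF replicate 1 there were 4 (Krt8, Krt17, Krt14 and Krt42), without MKOS MEF replicate 2 also 4 (Krt8, Krt18, Krt17 and Krt42), and Krt20 was lost without MKOS E-CAD+ 2NG- replicate 1 or replicate 2.

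From OKMS MEFs to OKMS E-CAD- 2NG- cells, 2 of 15 rose, Krt8 and Krt17, where 21.8% of all transcripts were called. With no read in the OKMS MEFs, 7 of the 15 members could not fall, here and in the change to E-CAD+ 2NG- cells below. The direction of the calls is thus a description in both. Krt17 was at least 83.8-fold above 3 reads over the OKMS MEF libraries, and its call was lost without OKMS MEF replicate 2. Krt6a, Krt6b and Krt42 were called higher too without replicate 3 of the sorted populations, which makes 5 (19.7% of all transcripts). Krt42 was read in replicate 2 only, and was called without replicate 1 or without replicate 3 of these cells.

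From OKMS MEFs to OKMS E-CAD+ 2NG- cells, 7 of 15 rose, where 29.2% of all transcripts were called. They were Krt8, Krt18 with 2.20 (SE 0.50, FDR 0.000663), Krt17, Krt14, Krt16, Krt6a and Krt5. The last 5 were at 0 in both OKMS MEF libraries, and their levels were at least 659-fold, 36.2-fold, 89.5-fold, 168-fold and 22.0-fold above 3 reads over those libraries. Krt14 was at 0 in OKMS E-CAD+ 2NG- replicate 3 as well. With Krt6b and Krt13 added, 9 were called without replicate 3 of the sorted populations (27.2% of all transcripts), and likewise without OKMS E-CAD+ 2NG- replicate 3 alone. The 7 became 4 without OKMS MEF replicate 1 and 3 without OKMS MEF replicate 2, and Krt5 was lost without OKMS E-CAD+ 2NG- replicate 1 or replicate 2.

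The MKOS and OKMS changes from MEFs to E-CAD+ 2NG- cells were compared in an interaction term, which was called for none of the 15 keratins (1.35% of all transcripts) by edgeR and for none by DESeq2. At an unadjusted p under 0.05 there were 2, Krt80 and Krt19. Krt80 was at an FDR of 0.158, and without replicate 3 of the sorted populations none was called either (1.84%). The MEFs of the 2 cassettes differed in none of the 15 (0.102% of all transcripts, 0 at an unadjusted p under 0.05, and 0 by DESeq2), nor without replicate 3 (0.275%).

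Of the 5 simple epithelial keratins, Krt8, Krt18 and Krt19 differed between E-CAD+ and E-CAD- OKMS cells in either gate, and Krt7 and Krt20 were not called. In the 2NG- gate Krt8 was higher in E-CAD+ cells by a log2 fold change of 2.73 (SE 0.48, FDR 0.00051), Krt18 by 2.89 (SE 0.44, FDR 5.26e-05) and Krt19 by 2.26 (SE 0.62, FDR 0.0394), 3 of 15 where 2.38% of all transcripts were called. In the 3NG- gate the same 3 were higher, Krt8 by 3.06 (SE 0.50, FDR 0.000113), Krt18 by 3.25 (SE 0.45, FDR 1.17e-05) and Krt19 by 3.10 (SE 0.64, FDR 0.00282), with Krt17 added at 3.58 (SE 0.96, FDR 0.039), where 1.75% were called. The E-CAD+ and E-CAD- libraries of Krt8, Krt18 and Krt19 did not overlap in either gate, whereas those of Krt17 in 3NG- did, through replicate 3. When replicate 3 of the sorted populations was left out, 4 were called in 2NG- (Krt8, Krt18, Krt17 and Krt14, 1.6% of all transcripts) and 5 in 3NG- (with Krt14 added, 0.988%). In 2NG- Krt19 was then at an FDR of 0.0552, and its call was also lost without any 1 of E-CAD+ replicates 1 and 2 and E-CAD- replicates 1, 2 and 3, and Krt16 was added without E-CAD- replicate 2. Leaving out E-CAD+ 2NG- replicate 3 gave 6 calls, with Krt17, Krt14 and Krt16 added. The Krt17 call in 3NG- was lost without any 1 of E-CAD+ replicates 1 and 2 and E-CAD- replicates 1, 2 and 3.

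Between the cassettes, 1 of 15 was called in E-CAD+ 2NG- cells. Krt42 was higher in MKOS by 5.10 (SE 1.17, FDR 0.00588), and the libraries did not overlap, where 5.07% of all transcripts were called. This call was lost without OKMS E-CAD+ 2NG- replicate 3, and Krt18 was added, lower in MKOS, without replicate 1 of those cells. Krt17 was higher in MKOS by 2.45 (SE 0.87, FDR 0.0993) without overlap, and Krt19 lower by a difference of -1.71 (SE 0.60, FDR 0.097) without overlap, and neither was called. With the replicate number as a block, Krt17 (FDR 0.00161) and Krt14 (FDR 0.0175) were called higher in MKOS beside Krt42. Leaving out replicate 3 of the sorted populations gave 4 calls (3.52% of all transcripts), Krt42 (FDR 0.0308), Krt17 (FDR 0.0163) and Krt14 (FDR 0.0199) as higher and Krt19 (FDR 0.0367) as lower in MKOS. Krt8 was at 0.74 (SE 0.45, FDR 0.387) without overlap and was not called.

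In E-CAD+ 3NG- cells no keratin was called between the cassettes by edgeR (2.17% of all transcripts), 3 had an unadjusted p under 0.05, and DESeq2 called 0. Krt19 was called without replicate 3 of the sorted populations (1.67% of all transcripts), lower in MKOS at a log2 difference of -2.72 (FDR 0.0127), and so it was without OKMS E-CAD+ 3NG- replicate 3 alone. In 3NG+ cells none was called by edgeR (0.685%), 5 had an unadjusted p under 0.05, and DESeq2 called 0. Krt14 was called without replicate 3 (FDR 0.0224, 0.661% of all transcripts). Leaving out the 7 libraries (replicate 3 of the Nanog-GFP- populations and OKMS 3NG+ replicate 2) gave 4 calls, Krt17, Krt14, Krt16 and Krt6a, all higher in MKOS. The replicate block called Krt17 (FDR 0.0257) and Krt14 (FDR 0.0477) in 3NG+ cells.

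From the 2NG- to the 3NG- gate no keratin was called with either cassette by edgeR (0.39% of all transcripts for MKOS and 0.0384% for OKMS E-CAD+ cells) or by DESeq2. Krt8 had the only unadjusted p under 0.05, at -1.33 (SE 0.46, FDR 0.336) in MKOS, where the 3 libraries of 3NG- lay below the 3 of 2NG-, and there was none in OKMS. None was called without replicate 3 of the sorted populations (0.314% and 0.203%).

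On entry into the Nanog-GFP+ state the called keratins, 3 of 15 for MKOS and 5 of 15 for OKMS, were all lower, while Krt42 was 16.8 and 18.0 CPM on average before and after in MKOS and 1.39 and 2.19 CPM in OKMS and was not called. From MKOS 3NG- to 3NG+ cells Krt8 fell by 1.79 on the log2 scale (SE 0.47, FDR 0.0363), Krt18 by 2.49 (SE 0.43, FDR 0.00089) and Krt19 by 2.51 (SE 0.64, FDR 0.0317), 3 of 15 where 1.58% of all transcripts were called. Krt8, Krt18 and Krt19 did not overlap between these libraries. When replicate 3 of the sorted populations was left out, Krt8 was at an FDR of 0.124 and Krt17 was called in its place (3 in all, 1.96% of all transcripts). One call remained, Krt18, without MKOS E-CAD+ 3NG- replicate 1 or without MKOS 3NG+ replicate 2. Krt8 was also lost without MKOS E-CAD+ 3NG- replicate 2 or MKOS 3NG+ replicate 3, Krt19 without MKOS E-CAD+ 3NG- replicate 3 or MKOS 3NG+ replicate 1, and the latter added Krt7.

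From OKMS E-CAD+ 3NG- to 3NG+ cells 5 of 15 fell, where 6.26% of all transcripts were called: Krt8 by 2.73 (SE 0.50, FDR 0.000427), Krt18 by 2.39 (SE 0.44, FDR 0.000455), Krt19 by 2.84 (SE 0.65, FDR 0.00564), Krt17 by 3.61 (SE 1.02, FDR 0.0248) and Krt14, which was at 0 in the 3 OKMS 3NG+ libraries and so at least 56.0-fold lower against 3 reads over them. Krt8 and Krt18 did not overlap. Krt19 and Krt17 overlapped between OKMS 3NG+ replicate 2 and replicate 3 of the 3NG- cells, which had no read of Krt14. With Krt20 and Krt13 added, 7 were called without replicate 3 of the sorted populations (6.81% of all transcripts) and without OKMS E-CAD+ 3NG- replicate 3 alone, and 9 without the 7 libraries. Leaving out OKMS 3NG+ replicate 2 lost Krt14 and added Krt6a. Without OKMS E-CAD+ 3NG- replicate 1 there were 3, and 2, Krt8 and Krt18, without OKMS E-CAD+ 3NG- replicate 2, OKMS 3NG+ replicate 1 or OKMS 3NG+ replicate 3. The interaction of cassette and this step was called for none of the 15 by edgeR (0.0256% of all transcripts) or DESeq2, and none had an unadjusted p under 0.05. It was called for none without replicate 3 of the sorted populations (0.177%) and for Krt17 without the 7 libraries.

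From MKOS 3NG+ cells to MKOS iPSCs, Krt8 fell by 3.5 on the log2 scale (SE 0.62, FDR 0.000494), from 118, 81.6 and 56.5 CPM to 3.42 and 12.2 CPM without overlap. It was the 1 keratin called, where 2.14% of all transcripts were called, and it was lost without MKOS iPSC replicate 1. Krt17, Krt14, Krt16 and Krt6a were called lower as well without replicate 3 of the sorted populations (5 in all, 2.86% of all transcripts). From OKMS 3NG+ cells to OKMS iPSCs none was called (0.614%, or 0.693% without replicate 3), 3 had an unadjusted p under 0.05 and DESeq2 called 0. OKMS 3NG+ cells already lay at 15.9 to 76.9 CPM of Krt8, next to 27.2 and 16.9 CPM in OKMS iPSCs.

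Among the pluripotent lines, Krt19 was higher in iPSCs without doxycycline than in TNG MKOS and TNG OKMS ESCs, averaged over the cassettes, by 2.31 (SE 0.60, FDR 0.0355). Its levels were 3.53, 14.7, 15.7 and 15.9 CPM against 6.55, 1.89, 1.17 and 1.75 CPM, which overlapped, and 1.4% of all transcripts were called. Krt8 was at 1.65 (SE 0.46, FDR 0.054), and was called without replicate 3 of the sorted populations (2.2% of all transcripts). The Krt19 call was lost without MKOS iPSC replicate 2, OKMS iPSC replicate 1, TNG MKOS ESC replicate 2 or TNG OKMS ESC replicate 1 or 2, and Krt8 was called without MKOS iPSC replicate 1, OKMS iPSC replicate 2, TNG MKOS ESC replicate 1 or TNG OKMS ESC replicate 2. Between iPSCs in 2i and without doxycycline none was called by edgeR (4.34% of all transcripts), 4 had an unadjusted p under 0.05, and DESeq2 called 1, Krt17. Krt18, Krt17 and Krt42 were called lower in 2i without replicate 3 of the sorted populations (5.48%), which enter here through the shared estimate of the spread and not through the libraries compared. Leaving out 1 library of MKOS iPSCs in 2i called Krt18 (replicate 1) or Krt42 (replicate 2), and OKMS iPSCs in 2i replicate 2 Krt42.

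**Figure D5:**
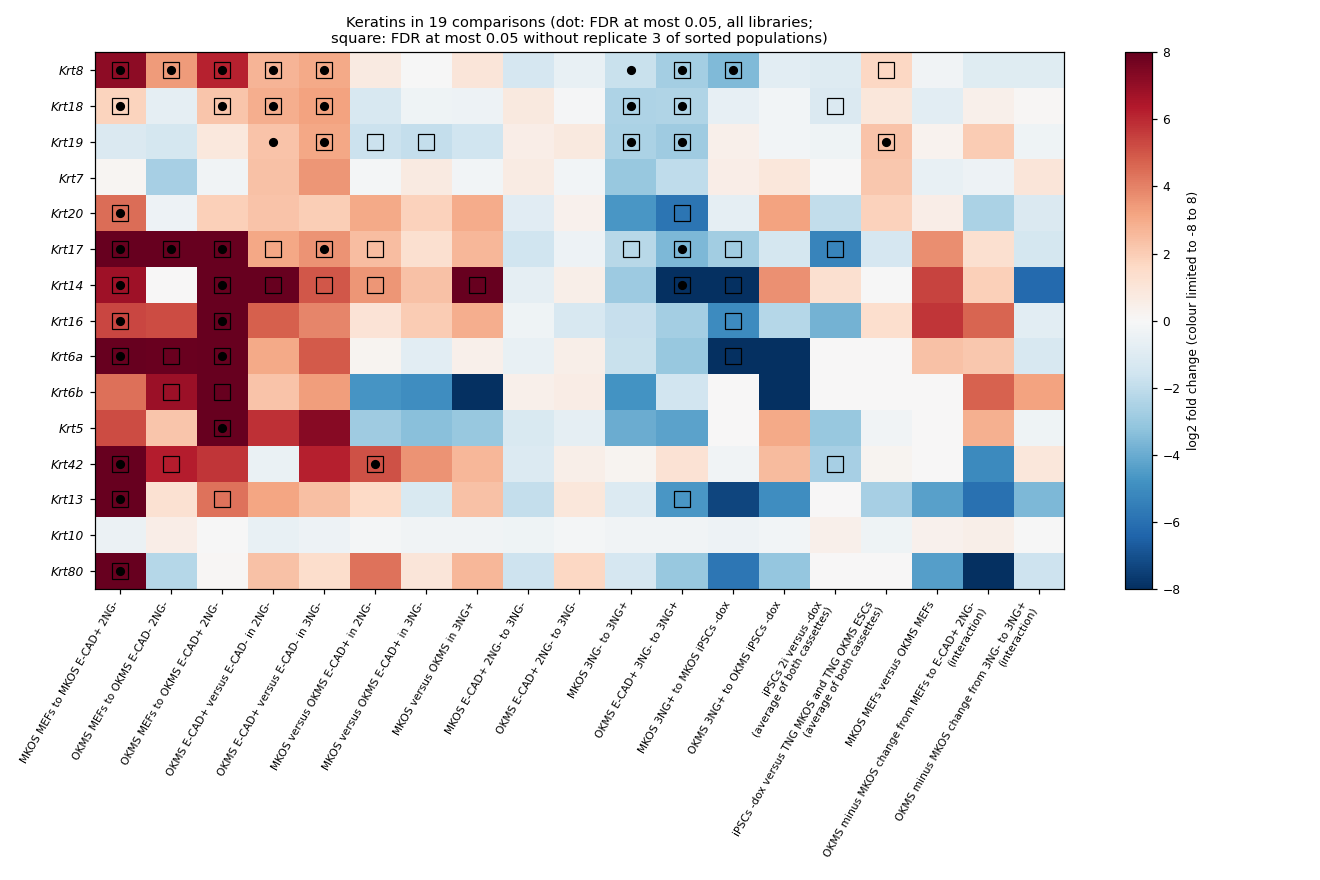
Log2 fold changes of the 15 keratins (rows) in 19 comparisons (columns), with colour limited to 8 in either direction. Dots mark an FDR of at most 0.05 with all libraries and squares the same without replicate 3 of the sorted populations. Calls in the first 5 columns are all higher and those from 3NG- onward to iPSCs all lower. Colours of genes at 0 in 1 group are fitted values and not bounds.

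Genes that anchor keratin filaments moved in part with them. Of 18 tested desmosome and keratin linker genes, 11 rose from MKOS MEFs to E-CAD+ 2NG- cells and none fell (27% of all transcripts called), among them desmoplakin (Dsp) by 5.81 (FDR 8.97e-07), desmoglein Dsg2 by 6.09 (FDR 2.67e-07) and plakophilin Pkp3. From OKMS MEFs 5 rose and 1 fell into E-CAD- (21.8% of all transcripts) and 8 rose and 1 fell into E-CAD+ 2NG- cells (29.2%), the one that fell being the linker plectin (Plec), at -2.72 and -2.66. The median of the 18 was 4.49, 0.84 and 2.45 in these 3 comparisons, or 2.80, 0.84 and 2.45 with genes at 0 set to their bound, beside 0 over all transcripts. From 3NG- to 3NG+ none passed in MKOS (1.58% of all transcripts) and 4 fell in OKMS (6.26%), Dsp by 2.62, Perp by 3.19, periplakin (Ppl) and Pkp3 by 2.86. Between E-CAD+ and E-CAD- OKMS cells Dsp and Dsg2 were higher in either gate (2.38% and 1.75% of all transcripts), Dsg2 by 3.23 and 3.02.

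The other intermediate filament genes were split. Vimentin (Vim) fell by 3.34 from MKOS MEFs to E-CAD+ 2NG- cells, by 2.58 from OKMS MEFs to E-CAD- and by 4.97 to E-CAD+ 2NG- cells, and it was lower in E-CAD+ than in E-CAD- 2NG- cells at -2.39. Of the 13 tested, 2 rose and 4 fell on entry into MKOS E-CAD+ 2NG- cells (27% of all transcripts called), and the lamin gene Lmnb2 was among those that rose. Of 14 tested epithelial regulators 10 rose and 1 fell into MKOS (27% of all transcripts called) and 11 rose and 1 fell into OKMS E-CAD+ 2NG- cells (29.2%). Sfn, known from keratinocytes, went from 0.205 to 0.886 CPM in MKOS MEFs to 303 to 414 CPM in MKOS E-CAD+ 2NG- cells, and Grhl2, a regulator of epithelial junction genes, from 0 in both OKMS MEF libraries to 10.0 to 21.9 CPM in OKMS E-CAD+ 2NG- cells. Between OKMS E-CAD+ and E-CAD- 2NG- cells 5 rose, including Sfn by 3.04, Grhl2 by 4.52, Esrp1 by 3.40 and Elf3 by 2.68. From 3NG- to 3NG+ none of the 14 was called in MKOS (1.58% of all transcripts) and 1 fell in OKMS (6.26%). The 15 listed regulators summed to condition means of 98.1 to 289 CPM in iPSCs and ESCs, against 12.9 to 32.2 CPM in MEFs. Of 11 tested cornified envelope genes 2 rose into MKOS and 3 into OKMS E-CAD+ 2NG- cells, and none fell in either. The transglutaminase Tgm1 rose in both. Of all 15630 transcripts 2342 rose and 1872 fell into MKOS cells (27% called), and 2452 rose and 2117 fell into OKMS cells (29.2% called). With 11 genes these counts are a description only.

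Markers of other cell types that use these keratins were followed beside them. Trophoblast, which uses Krt7, Krt8, Krt18 and Krt19, has 10 listed markers, 9 of them tested. They summed to 23.0 to 32.3 CPM in MKOS E-CAD+ 2NG- and 44.5 to 81.6 CPM in OKMS E-CAD+ 2NG- cells, against 10.9 to 11.1 CPM in MKOS and 8.72 to 17.8 CPM in OKMS MEFs. Of the 9, 2 rose in each of the changes from MEFs to E-CAD+ 2NG- cells, Tead4 and Elf5 in MKOS and Elf5 and Eomes in OKMS. Over all transcripts 2342 and 2452 of 15630 rose, and 27% and 29.2% were called in either direction. With 9 genes these counts are a description only. Primitive endoderm markers summed to 30.8 to 97.6 CPM and 35.1 to 64.7 CPM there, below the 312 to 318 CPM and 225 to 336 CPM of the MEFs. In each, 3 of 8 fell, where 1872 and 2117 of 15630 transcripts fell and 27% and 29.2% were called in either direction. They were Pdgfra, Dab2 and Gata6 in MKOS and Col4a1, Pdgfra and Dab2 in OKMS. Gata4, Sox17, Sox7 and Foxa2 of the same list were called in neither. The sum is thus no measure of endoderm cells among the MEFs, and which cells express the genes that fell was not tested. Fibroblast markers summed to 567 to 1084 CPM in MKOS and 94.6 to 333 CPM in OKMS E-CAD+ 2NG- cells, against 6000 to 6347 CPM and 3605 to 4575 CPM in the MEFs. Their part in the keratin values was not tested. The 23 hair keratins found in the table summed to at most 7.77 CPM in any library, and none passed the filter.

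Over the 20 condition means, on log2(CPM + 1), the transcripts with the pattern most like Krt8 among 10893 with at least 1000 reads were Krt6a (Pearson r 0.96), the desmocollin Dsc2 (0.95), the plakophilin Pkp1 (0.94), Ly6g6c (0.94) and S100a14 (0.93). Among those most like Krt18 were S100a3 (0.88), Dmkn (0.88), Krt6a (0.87) and the proton pump subunit Atp6v1f (0.86). The correlation of Krt8 with its partner Krt18 was 0.86, that with Krt42 0.08 and that with Krt10 0.07. These are descriptions over 20 points that share libraries, and replicate 3 enters 8 of the means.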

How the data were processed

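Sorted cells and cell lines were sequenced by single-cell tagged reverse transcription (STRT), which reads transcript 5′ ends. The deposited table holds raw read counts per transcript, repeat type and spike-in, made by the authors with the STRT pipeline. The submitters' processing notes name Bowtie 0.12.7 and mm10, and the study's methods name mm9. The deposited positions were checked against RefSeq: 99.0% of 20698 matched symbols lay within or up to 150 bases before their GRCm38.p6 gene, so GRCm38.p6 coordinates are given. Reads with several positions were counted at 1 of them, which can move reads between near-identical keratins.

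CPM values used the reads on 24264 transcripts. The counts of all 48 libraries were fitted in 1 model with a coefficient per condition (edgeR 4.0.16, TMM, filterByExpr, quasi-likelihood test), and 19 contrasts were taken, 2 of them interactions. The fit was tested on simulated data. Every keratin with at least 100 reads is named, with values by library for those called or among the 6 highest, and at most 4 called genes of each other list per comparison, those with the smallest FDR, and the genes with a pattern most like Krt8 and Krt18, 1 of which is not reported here. The members and lists were chosen with earlier results of these data known. Alternatives were DESeq2 1.42.0, edgeR with the size factors of DESeq2, a fit without filtering, the compared libraries only, a replicate block, each library left out in turn, 7 libraries left out and, added after seeing the data, replicate 3 of the sorted populations left out.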

Additional observations from a re-analysis of the deposited data

How the results depend on the processing

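All 37 keratin changes called with all libraries kept their direction under every alternative run, and none reversed. They stayed past the threshold in 36 of 36 under DESeq2 (1 had no adjusted p), 37 of 37 with its size factors in edgeR, 36 of 37 with no filter on low counts, 32 of 36 in fits to the compared libraries only (1 was not tested), 37 of 37 with the replicate block, 37 of 37 without the 7 libraries and 35 of 37 without replicate 3 of the sorted populations. Leaving out each library in turn kept 143 of 204 and lost 61. Those fits held the trend of the dispersion from the full fit, and where 1 library of a condition was left, it was assumed to vary like the other conditions. The cause of these changes was not tested.

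Many counts of called keratins moved, and not every move is listed. Within a setting the order is that of the comparisons in the plot of 19 comparisons, with further moves at the end. With no filter on low counts (19768 transcripts tested) there were 8 for OKMS MEFs to E-CAD- 2NG-, 7 and 9 for E-CAD+ versus E-CAD- in 2NG- and 3NG-, 8, 5 and 7 for MKOS versus OKMS in 2NG-, 3NG- and 3NG+, 2 for MKOS 2NG- to 3NG-, 8 and 9 for 3NG- to 3NG+ in MKOS and OKMS, 6 and 2 for 3NG+ to iPSCs, 4 for 2i, 3 for iPSCs versus ESCs and 1 for each interaction. In the same order, 3561, 843, 660, 1260, 864, 484 and 237 of all transcripts were called up to MKOS 2NG- to 3NG-. From 3NG- to 3NG+ onward the calls over all transcripts were 887, 1453, 799, 384, 1025, 564, 624 and 163. Without the 7 libraries there were 5 for OKMS MEFs to E-CAD- 2NG-, 6 for E-CAD+ versus E-CAD- in 2NG-, 4, 1 and 4 for MKOS versus OKMS, 6 and 9 for 3NG- to 3NG+, 6 for MKOS 3NG+ to iPSCs, 3 for 2i, 2 for iPSCs versus ESCs and 1 for the interaction at 3NG+. Of 15432 transcripts tested, 3180, 290, 593, 275, 219, 559, 1461, 585, 904, 389 and 46 were called in the same order. Without replicate 3 there were 5 for OKMS MEFs to E-CAD- 2NG-, 4, 1 and 1 for MKOS versus OKMS, 5 for MKOS 3NG+ to iPSCs, 3 for 2i and 2 for iPSCs versus ESCs, with the shares of all transcripts given above. In fits to the compared libraries only there were 5 for OKMS MEFs to E-CAD- 2NG- (3458 of 12311 transcripts), 3 and 1 for MKOS versus OKMS in 2NG- and 3NG- (748 of 11583 and 277 of 12124), 2 for MKOS 2NG- to 3NG- (122 of 12055), 5 and 3 for 3NG- to 3NG+ (545 of 11929 and 428 of 11142), 2 for MKOS 3NG+ to iPSCs (283 of 11685) and 1 for 2i (357 of 12353). DESeq2 gave 1 for 2i (1016 of 13635 transcripts) and 2 for iPSCs versus ESCs (523 of 12485), and its size factors in edgeR 2 for the latter (239 of 15630). DESeq2 also gave 3 for OKMS MEFs to E-CAD- 2NG- (3824 of 13635), and 4 and 6 for 3NG- to 3NG+ in MKOS and OKMS (635 and 1505 of 13251). Without the 7 libraries there were 6 for E-CAD+ versus E-CAD- in 3NG- (159 of 15432). With no filter there were 9 for OKMS MEFs to E-CAD+ 2NG- (4476 of 19768), with Krt5 lost.

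The replicate numbers are not stated to pair libraries. Deviations of same-numbered sorted libraries from their group means correlated at -0.05 to 0.41 over 84 pairs (mean 0.09), 27 of them over 0.1, and 20 of 24 libraries correlated best, on average, with their own number, which is a hint from the data and not from the design. With the replicate block 6 keratins were called for E-CAD+ versus E-CAD- in 2NG-, 3 and 2 for MKOS versus OKMS in 2NG- and 3NG+, 3 for MKOS 3NG+ to iPSCs, 1 for 2i and 2 for iPSCs versus ESCs. In the same order, 450, 903, 159, 456, 784 and 302 of 15630 transcripts were called. The block also gave 4 for 3NG- to 3NG+ in MKOS, with Krt17 added (422 of 15630), and 6 in OKMS, with Krt20 added (1122 of 15630).

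With each library left out in turn the counts ranged from 4 to 10 for MKOS MEFs to E-CAD+ 2NG-, 1 to 3 for OKMS MEFs to E-CAD-, 3 to 9 for OKMS MEFs to E-CAD+ 2NG-, 2 to 6 for E-CAD+ versus E-CAD- in 2NG-, 0 to 2 and 0 to 1 for MKOS versus OKMS in 2NG- and 3NG-, 1 to 3 and 2 to 7 for 3NG- to 3NG+ in MKOS and OKMS, 0 to 1 for MKOS 3NG+ to iPSCs, 0 to 1 for 2i and 0 to 2 for iPSCs versus ESCs. For the fits with 1 library left out, shares over all transcripts are not given, so these ranges are descriptions only. Depth limited the members with few reads: Krt5 had 197 and Krt80 343 over 48 libraries.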
